A study of Mus musculus with 6 samples.

Results

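The collagens are the genes whose proteins form the triple-helical scaffold of the extracellular matrix, and 44 of them were followed among the 19938 genes compared in embryonic mouse lung. The members are all genes with the symbol pattern Col, a number, a, a number, read from array features annotated to a single gene symbol. They were covered by 46 features. Col6a5 and Col6a6 had several features each, and the feature that read highest on average stands for the gene. Whole lungs were taken at embryonic stage E14.5 and profiled on single-colour arrays, 1 array per embryo. Shh-Cre drives Cre recombinase from Shh, a gene that is active in lung endoderm, the source of the epithelium, and the 3 control embryos carried it alone as far as the labels say. The 3 mutant embryos carried Shh-Cre with homozygous floxed alleles of Foxp1, Foxp2 and Foxp4, forkhead transcription factor genes, and the labels do not say whether the controls carried any floxed allele. The genotype label names Foxp1 in 2 places and the series title names Foxp2, which was followed here, while the design text calls the mutants DKO. Both groups were of a mixed C57BL/6 and 129X1 background. Shh-Cre does not reach the mesenchyme, which remains in the samples of both groups.

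Collagen chains assemble in threes in the endoplasmic reticulum, are hydroxylated and glycosylated there, and are secreted. Fibrillar collagens form the rope-like fibrils of connective tissue. Type IV collagen forms the sheet beneath epithelia, endothelia and around muscle, and types XV and XVIII are attached to that sheet. Cartilage has its own set, which in the lung belongs to the rings of the trachea and large airways. FACITs, the fibril-associated collagens with interrupted triple helices, sit on fibrils, and transmembrane collagens are held in the cell membrane. In the developing lung most fibrillar collagen comes from mesenchyme, while basement membrane is laid down by epithelium, endothelium and mesenchyme together.

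Over all genes the arrays correlated between 0.988 and 0.998, with array medians from 6.70 to 6.79 on the log2 scale of the deposited values. The targeted genes Foxp2 (log2 difference -0.95, adjusted p = 4.75e-05) and Foxp4 (-0.64, adjusted p = 0.00591) were lower in mutants, and Foxp1 (-0.31, adjusted p = 0.0661) did not pass. Where their features lie relative to the floxed exons was not analysed here. Marker lists of cell types differed in how many of their genes passed the test, where 3.83% of all genes were lower and 3.84% higher. Of 10 lung epithelial markers 8 fell, with a summed linear signal of 10895 to 11100 in controls and 4902 to 5810 in mutants, led by Sftpc (-5.58) and Krt7 (-1.44). In such a sum bright genes weigh most, and Sftpc was the brightest of the 10 in controls (11.38, against 5.80 in mutants). The general epithelial markers differed by less: Epcam fell (-0.33), while Cdh1 (-0.19) and Krt18 (-0.44) did not pass. Of 10 smooth muscle markers 7 fell, with 11459 to 11742 in controls and 5427 to 6360 in mutants, led by Myh11 (-2.57) and Cnn1 (-2.21). Of 12 fibroblast and mesenchyme markers 5 rose, with 12770 to 13368 in controls and 15016 to 15700 in mutants, led by Prrx1 (1.09) and Fgf10 (0.77). The tendon and perichondrium list had 2 falls in 5 genes, the mesothelial list 1 rise in 6, the blood list 1 rise and 1 fall in 7, and the Schwann and neural crest list 1 rise and 1 fall in 4, while 8 endothelial and 9 skeletal muscle markers had no call. The heart muscle list of 14 genes had no call, but mutant 1 stood apart at 10094 against 2018 and 2111 in the other mutants and 4011 to 4157 in controls. In whole tissue, fewer cells of a type and less RNA per cell cannot be told apart.

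Few collagen genes differed between the groups. Of the 44 genes, 3 were lower in mutant lungs at a Benjamini-Hochberg adjusted p under 0.05 in limma, 0 were higher and 41 did not pass. These 3 calls are 6.82% of the collagens, beside 7.66% of all genes tested (3.83% lower and 3.84% higher), so the share of calls is near the background. At an unadjusted p under 0.05, 13 collagen genes lay lower and 1 higher, together 14 of 44. Of all 19938 genes, 1851 lay lower and 2106 higher at that threshold, together 19.8%. The lean of the collagens to lower values was thus not shared by all genes. The genes that fell were Col18a1 and Col4a4 of the basement membrane and Col27a1 among the fibrillar collagens. The differences were small: 34 of the 44 collagen genes differed by less than 1.2-fold, and for 35 the 95% interval of the difference lay within 1.5-fold in either direction. For 43 it lay within 2-fold, Col12a1 being the exception. With at least 1.5-fold also required, 1 collagen (Col18a1) was called, beside 2.75% of all genes, and at a threshold of 0.1 there were 7, beside 11.2%. Calls numbered 1 without control 3 (3.9% of all genes), 7 without mutant 1 (7.44%) and 7 with array weights (9.86%).

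**Figure D1:**
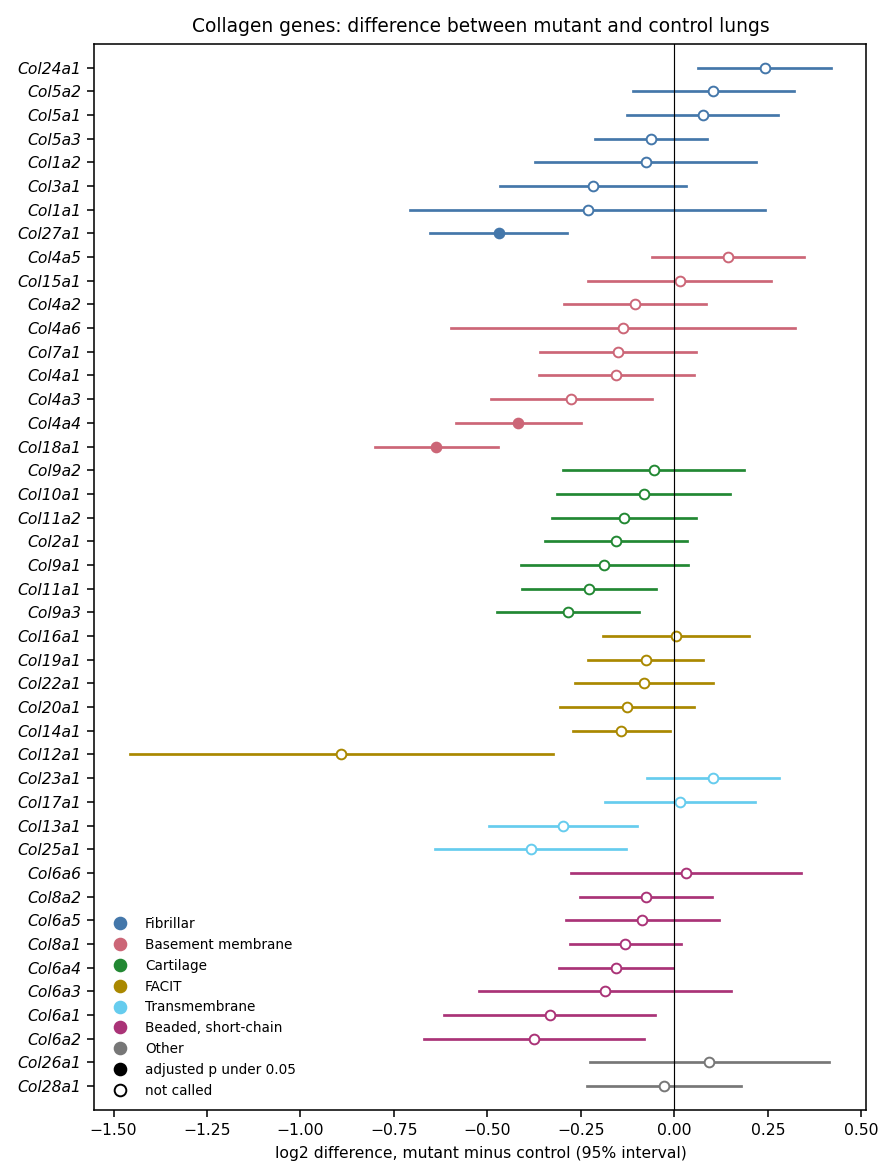
Log2 difference (mutant minus control, x axis) of the 44 collagen genes with its 95% interval from the limma fit (3 arrays per group), coloured by class. Filled points are the 3 genes past the adjusted threshold, Col18a1, Col4a4 and Col27a1. Col12a1 has the lowest estimate with an interval that reaches from -1.46 to -0.32.

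Most collagen estimates lay slightly below 0. The log2 difference was negative for 34 of the 44 genes, with a median of -0.13, where 52% of all genes tested were negative with a median of -0.01. The 3 mutants lay wholly below the 3 controls in 16 collagen genes (36.4%), beside 12.6% of all genes, and above them for 1 (Col24a1), beside 13.4% of all genes. The size of the shift differed between embryos. Mutant 2 had the lowest value of the 6 arrays for 38 of the 44 collagen genes (86.4%), beside 29.2% of all genes. Relative to the control means, the collagen median was -0.27 on mutant 2, -0.05 on mutant 3 and 0.00 on mutant 1, while the median of all genes on mutant 2 was -0.02. Without mutant 2 the median difference of the collagens was -0.04 and 29 were negative, beside 49.1% of all genes. The remaining mutants then lay wholly below the controls in 16 collagen genes (36.4%), beside 18.8% of all genes. They lay wholly above them in 6, beside 20.1% of all genes.

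The shift on mutant 2 ran through every class. Its class medians relative to controls were -0.34 for cartilage, -0.31 for transmembrane, -0.30 for basement membrane, -0.28 for fibrillar, -0.23 for beaded and short-chain and -0.18 for FACIT collagens, and -0.15 for the 2 remaining genes. On mutant 1 the medians of the first 6 classes lay between -0.13 and 0.05 and on mutant 3 between -0.11 and 0.08. The lists of collagen-handling genes were nearer to 0 on mutant 2, with medians from -0.15 for fibril-binding proteins to 0.01 for chain assembly and modification. The collagens varied more between mutants than between controls: the median SD (n = 3) was 0.16 in mutants and 0.05 in controls, against 0.10 and 0.06 over all genes, and 39 of 44 collagens had the larger SD in mutants (68.8% of all genes). The labels give no batch, sex or litter that sets mutant 2 apart.

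**Figure D2:**
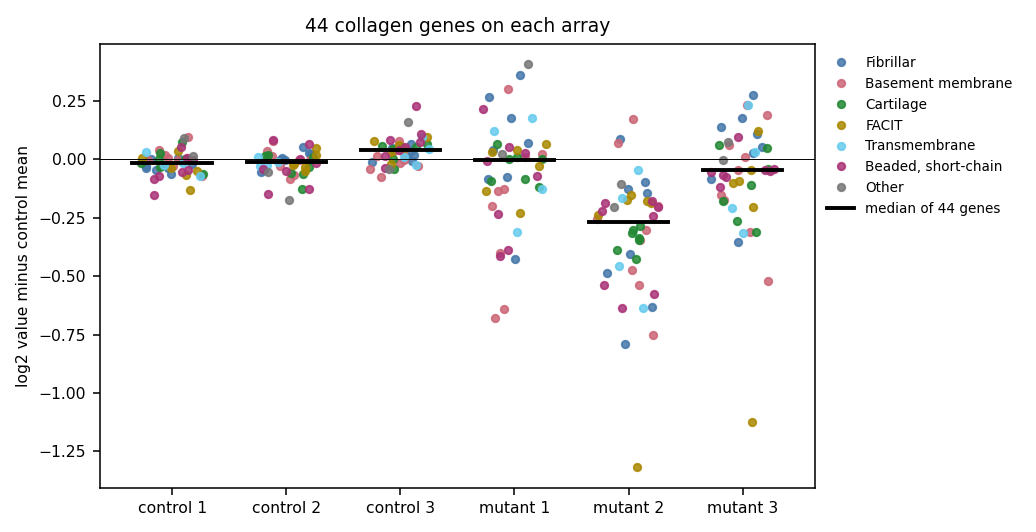
Each point is 1 collagen gene on 1 array, as its log2 value minus the mean of the 3 controls, coloured by class, and the black bars are medians of the 44 genes. The median is -0.27 on mutant 2 and between -0.05 and 0.04 on the other 5 arrays.

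Col18a1 encodes type XVIII collagen, a heparan sulfate-bearing collagen of basement membranes whose C-terminal fragment is endostatin. It stood at 9.35, 9.31 and 9.27 log2 units on control arrays 1 to 3 and at 8.67, 8.56 and 8.79 on mutant arrays 1 to 3, the order used throughout. The groups did not overlap, and the gap between them was wider than the range within either. The log2 difference was -0.64 ± 0.07 (SE, n = 3 per group), a 1.56-fold fall (limma, adjusted p = 0.0015). It was called under all 14 alternative fits, with an adjusted p of at most 0.0122, and was the only collagen called in all of them.

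Col27a1 encodes a fibrillar collagen with a slightly shorter, interrupted triple helix that is prominent in developing cartilage and some epithelia. It stood at 8.59, 8.54 and 8.63 on the control arrays and 8.16, 7.96 and 8.24 on the mutant arrays. All mutants were lower, mutant 2 the lowest. The difference was -0.47 ± 0.08 (adjusted p = 0.0105), and without control 3 the call ended (adjusted p = 0.0572).

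Col4a4 encodes the α4 chain of type IV collagen, which joins α3 and α5 in the basement membranes of kidney glomerulus, alveolus and inner ear. It stood at 7.05, 7.15 and 7.15 on the control arrays and 6.71, 6.58 and 6.80 on the mutant arrays, again without overlap. The difference was -0.42 ± 0.07 (adjusted p = 0.0119), and without control 2 or control 3 it no longer passed (adjusted p = 0.0615 and 0.0631). Of the 10 epithelial markers given above 8 fell on the same arrays as Col18a1, Col27a1 and Col4a4. The part of the epithelium in these differences was not tested.

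**Figure D3:**
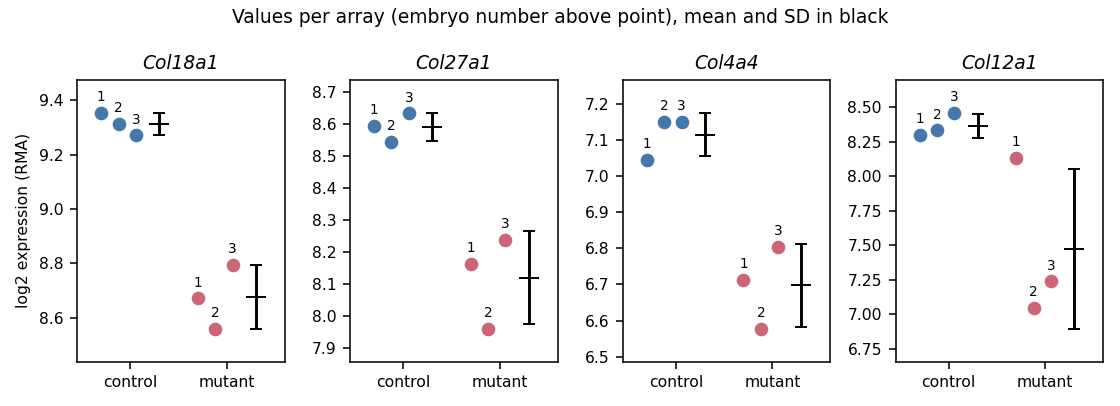
Log2 expression (y axis, RMA values, a separate scale for each gene) of Col18a1, Col27a1, Col4a4 and Col12a1 on each array, numbered by embryo, with the mean and SD (n = 3) in black. The mutants lie below all controls for each gene, and mutant 1 lies near the controls for Col12a1.

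The start regions of the 3 genes that fell are shown for reference to what lies before them. RefSeq windows (assembly GRCm38.p6) of 300 bases, 250 before to 50 after an annotated start, were matched by symbol for 35 of the 44 collagen genes, 38 windows in all. They were searched on both strands for the forkhead core TGTTTAC, the SOX-type letters ACAATGG, the CCAAT box CCAAT and the TATA box TATAAA, none of which contains another. Matches are in capitals, and a window without capitals holds none of these letters. Col18a1 has an upstream window (chr10:77166481-77166780, minus strand) and a downstream one (chr10:77113656-77113955, minus strand), and its array feature is annotated to transcripts of both. The Col27a1 window is chr4:63215162-63215461 (plus strand) and that of Col4a4 chr1:82586800-82587099 (minus strand).
Col18a1, upstream start: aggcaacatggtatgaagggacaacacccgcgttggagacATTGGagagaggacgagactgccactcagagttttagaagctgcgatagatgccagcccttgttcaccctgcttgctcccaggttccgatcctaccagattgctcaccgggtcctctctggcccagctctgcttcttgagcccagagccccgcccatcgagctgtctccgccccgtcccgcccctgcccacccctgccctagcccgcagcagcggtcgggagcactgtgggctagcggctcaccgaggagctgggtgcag
Col18a1, downstream start: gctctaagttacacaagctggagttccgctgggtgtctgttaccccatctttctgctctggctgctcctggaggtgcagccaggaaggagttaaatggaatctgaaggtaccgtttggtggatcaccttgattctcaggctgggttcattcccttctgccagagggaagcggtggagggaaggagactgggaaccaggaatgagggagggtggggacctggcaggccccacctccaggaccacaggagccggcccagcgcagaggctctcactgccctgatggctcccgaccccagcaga
Col27a1: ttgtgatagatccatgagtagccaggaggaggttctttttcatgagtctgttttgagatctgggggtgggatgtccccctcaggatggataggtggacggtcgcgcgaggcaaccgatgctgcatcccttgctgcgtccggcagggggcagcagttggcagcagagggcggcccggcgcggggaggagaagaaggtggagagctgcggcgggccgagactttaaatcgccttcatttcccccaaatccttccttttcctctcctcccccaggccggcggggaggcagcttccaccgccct
Col4a4: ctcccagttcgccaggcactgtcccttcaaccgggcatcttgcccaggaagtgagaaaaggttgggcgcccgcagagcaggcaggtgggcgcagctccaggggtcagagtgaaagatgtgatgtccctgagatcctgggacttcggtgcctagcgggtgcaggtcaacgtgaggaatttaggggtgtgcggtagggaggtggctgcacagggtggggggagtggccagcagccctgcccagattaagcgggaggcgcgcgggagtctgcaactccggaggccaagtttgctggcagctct
The upstream Col18a1 window holds CCAAT on the reverse strand, its first printed letter 210 bases before the start, and the other windows of these genes hold no match. Over the collagens, CCAAT was in 13 of 38 windows (34.2%, against 37.4% of all 32851 windows) and TATAAA in 5 (13.2%, against 13.6%). TGTTTAC was in 1 (2.63%, against 3.65%) and ACAATGG in 0 (against 3.66%). A match is a description of the letters in this window and not of binding.

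Among the 9 basement membrane collagens 2 fell (22.2%, beside 3.83% of all genes) and 0 rose (beside 3.84%). The other 7 did not pass, and the class median was -0.15. The other type IV chains come in gene pairs that lie head to head. Col4a1 and Col4a2 encode the chains of the type IV network found in nearly every basement membrane. Col4a1 stood at 9.54, 9.51 and 9.57 on the control arrays and 9.41, 9.20 and 9.55 on the mutant arrays (-0.16 ± 0.09, adjusted p = 0.41), and its 95% interval ran from -0.36 to 0.05. Col4a2 stood at 9.42, 9.40 and 9.39 on the control arrays and 9.28, 9.15 and 9.47 on the mutant arrays (-0.11 ± 0.08, adjusted p = 0.572). Both chains were ordered alike across the mutants, lowest in mutant 2 and highest in mutant 3, and the groups overlapped. On every array their deviations from the control means differed by less than 0.1 log2 units. Their RefSeq starts lie 21 bases apart on opposite strands, and the windows of Col4a1 (chr8:11312777-11313076, minus strand) and Col4a2 (chr8:11312555-11312854, plus strand) share 78 bases.
Col4a1: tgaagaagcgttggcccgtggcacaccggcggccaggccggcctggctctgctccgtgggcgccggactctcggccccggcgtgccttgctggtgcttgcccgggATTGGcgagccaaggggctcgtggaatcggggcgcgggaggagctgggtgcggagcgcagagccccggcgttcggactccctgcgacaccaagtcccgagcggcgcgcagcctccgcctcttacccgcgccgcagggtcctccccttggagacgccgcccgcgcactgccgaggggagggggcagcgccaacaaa
Col4a2: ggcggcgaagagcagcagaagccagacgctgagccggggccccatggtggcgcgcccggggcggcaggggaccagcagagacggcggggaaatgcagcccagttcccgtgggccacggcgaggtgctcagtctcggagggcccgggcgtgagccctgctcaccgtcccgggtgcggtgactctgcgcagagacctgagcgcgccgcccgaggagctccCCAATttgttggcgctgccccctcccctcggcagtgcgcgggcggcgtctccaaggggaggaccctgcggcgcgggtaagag
The capitals mark a CCAAT box in each window, 145 bases before the Col4a1 start on the reverse strand and 32 bases before the Col4a2 start on the forward strand.

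Col4a3, the partner of Col4a4, stood at 6.85, 6.68 and 6.72 on the control arrays and 6.55, 6.27 and 6.60 on the mutant arrays. Its values did not overlap between the groups, but the difference of -0.28 ± 0.09 did not pass (adjusted p = 0.138). Col4a3 and Col4a4 had the same order across the mutants. Col4a5 and Col4a6, the X-linked pair, did not. Col4a5 stood at 7.64, 7.63 and 7.63 on the control arrays and 7.94, 7.81 and 7.59 on the mutant arrays (0.14 ± 0.09, adjusted p = 0.445). Col4a6, a chain of the network around smooth muscle and under bronchial epithelium, stood at 7.13, 7.17 and 7.17 on the control arrays and 6.48, 7.23 and 7.35 on the mutant arrays (-0.14 ± 0.20, adjusted p = 0.789). Mutant 1 was the lowest array for Col4a6 and the highest for Col4a5, and its deviations in the 2 genes differed by 0.98 log2 units. Mutant 1 is also the array with the high heart muscle markers, whose part in this was not tested. Col15a1, the relative of Col18a1 found around vessels and muscle, was at 0.01 ± 0.11 with overlapping groups, and Col7a1, the anchoring fibril chain of stratified epithelia, was at -0.15 ± 0.09.

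**Figure D4:**
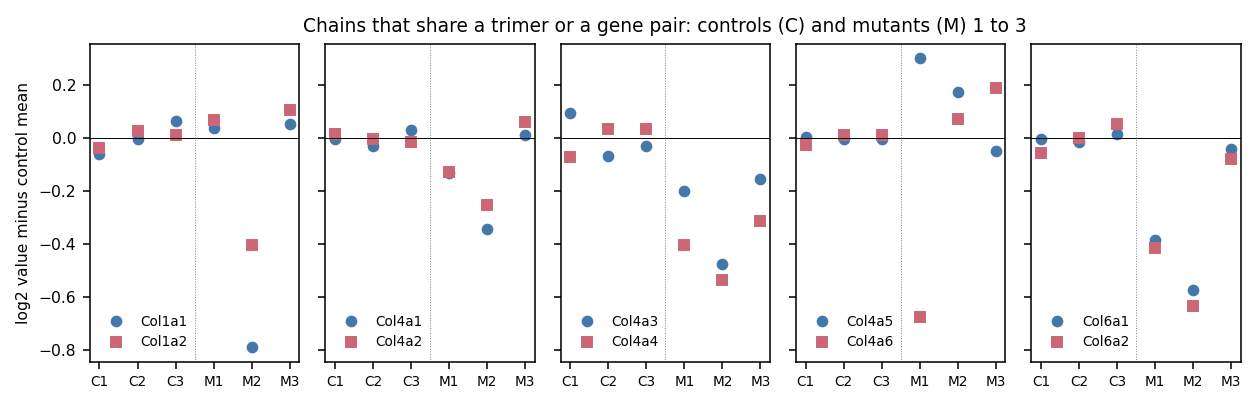
Log2 value minus control mean (y axis) on controls 1 to 3 (C1 to C3) and mutants 1 to 3 (M1 to M3) for chains that share a trimer or a head-to-head gene pair. Col4a1 with Col4a2 and Col6a1 with Col6a2 lie close to each other on each array, while Col4a5 and Col4a6 differ by 0.98 on mutant 1.

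The major fibrillar collagens did not pass the test. Of the 8 genes in this class, Col27a1 fell (12.5%, beside 3.83% of all genes) and 0 rose (beside 3.84%). The other 7 did not pass, and the class median was -0.07. Col1a1, the main chain of type I collagen of fibroblasts and bone, stood at 11.24, 11.30 and 11.37 on the control arrays and 11.34, 10.51 and 11.36 on the mutant arrays. Mutants 1 and 3 lay within the control range and mutant 2 far below it. The difference was -0.23 ± 0.21 (adjusted p = 0.63), with an interval from -0.71 to 0.24. Its partner Col1a2 stood at 10.83, 10.90 and 10.88 on the control arrays and 10.94, 10.47 and 10.98 on the mutant arrays (-0.08 ± 0.13, adjusted p = 0.821), so that mutant 2 was low here too, by less. Col3a1, the chain of type III collagen in vessels and airways, stood at 10.19, 10.23 and 10.26 on the control arrays and 10.14, 9.74 and 10.14 on the mutant arrays (-0.22 ± 0.11, adjusted p = 0.322).

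The type V chains, which start fibrils and set their width, lay close to 0. Col5a1 was at 0.08 ± 0.09, Col5a2 at 0.10 ± 0.09 and Col5a3 at -0.06 ± 0.06, all with overlapping groups. Col24a1, a minor fibrillar chain of developing bone and eye, was the only collagen whose mutant values all exceeded the controls. It stood at 6.97, 7.01 and 7.02 on the control arrays and 7.36, 7.09 and 7.28 on the mutant arrays (0.24 ± 0.08, adjusted p = 0.115). Without mutant 2 it passed (0.32, adjusted p = 0.0163), but that array holds the lowest mutant value, so leaving it out favours a rise. With array weights it passed too (adjusted p = 0.0266). Of the 12 fibroblast and mesenchyme markers 5 rose on the same mutant arrays and 7 did not pass. Lum, 1 of the 5, is also in the list of fibril-binding proteins below. The part of these markers in the fibrillar values was not tested.

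None of the 7 cartilage collagens passed, and all 7 had negative differences, with a median of -0.16 (unadjusted p under 0.05 for 2 of them). Relative to the control means the class median was 0.00 on mutant 1, -0.34 on mutant 2 and -0.11 on mutant 3. Without mutant 2, the differences of Col9a2 and Col10a1 were positive (0.06 and 0.03). Col2a1, the principal fibril chain of hyaline cartilage, stood at 8.56, 8.59 and 8.58 on the control arrays and 8.49, 8.24 and 8.54 on the mutant arrays. The mutants were all below the controls, mutants 1 and 3 by less than 0.1 log2 units, and the difference was -0.16 ± 0.08 (adjusted p = 0.356). Col11a1, which nucleates the type II fibril, stood at 7.95, 7.95 and 8.05 on the control arrays and 7.90, 7.64 and 7.72 on the mutant arrays (-0.23 ± 0.08, adjusted p = 0.137). Col9a3, of the type IX collagen on the fibril surface, was at -0.29 ± 0.08 (adjusted p = 0.0844). Without mutant 1, whose value was the highest mutant value of both, Col9a3 and Col11a1 passed (adjusted p = 0.0174 and 0.0381), an omission that favours a fall. Col9a1, Col9a2, Col11a2 and Col10a1, the last a chain of hypertrophic cartilage, lay between -0.19 and -0.06 with overlapping groups.

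Some other cartilage genes differed by more than 1 log2 unit. Of 12 cartilage markers 5 fell (41.7%, beside 3.83% of all genes) and 0 rose (beside 3.84%). Their summed linear signal was 2999 to 3094 in controls and 2076 to 2152 in mutants. In this sum bright genes weigh most, and the brightest were Sox9 (10.10 in controls, 9.26 in mutants) and Hapln1 (9.63 and 9.84). Sox9, the transcription factor of chondrocytes and also of distal lung epithelium, was at -0.84 ± 0.07 (adjusted p = 0.000268), and Mia and Cytl1, secreted proteins of chondrocytes, at -1.78 and -1.80. Cnmd, chondromodulin, and Matn4, a matrilin of the matrix, fell by 1.42 and 0.83 on the log2 scale (adjusted p = 0.00105 and 0.000427). The other 7 markers (Acan, Matn1, Matn3, Comp, Hapln1, Snorc and Epyc) did not pass and lay between -0.17 for Epyc and 0.21 for Hapln1. Apart from Hapln1 (9.63), their control means ran from 5.21 for Epyc to 6.16 for Comp, below the array medians of 6.70 to 6.79. At such levels a fall could hardly show, so these genes are not evidence of an unchanged level. The sum is thus not a measure of chondrocytes alone, and their part in the cartilage collagen values was not tested.

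None of the 6 FACIT genes passed, although this class holds the lowest estimate of the family. Col12a1 encodes type XII collagen, which sits on type I fibrils in tendon, fascia and smooth muscle layers. It stood at 8.30, 8.33 and 8.46 on the control arrays and 8.13, 7.05 and 7.24 on the mutant arrays. Mutants 2 and 3 lay more than 1 log2 unit below the controls and mutant 1 just under them. The difference was -0.89 ± 0.25 or 1.85-fold (adjusted p = 0.0731), with a mutant SD of 0.58. It passed when each array was centred on its median (-0.91, adjusted p = 0.0445), with array weights (-0.88, adjusted p = 0.0234), and without mutant 1 (-1.22, adjusted p = 0.000256), which is the highest mutant. Of the 10 smooth muscle markers, mutant 1 was the highest mutant for 7 and mutant 3 for 3 (Acta2, Mylk and Smtn). Mutant 1 exceeded the next mutant by more than 1 log2 unit for 2 of the 10, Myh11 (8.50, 7.03 and 7.30) and Cnn1 (8.28, 6.73 and 6.76), while Acta2 stood at 11.55, 11.45 and 11.69. This comparison was chosen after the values were seen, and the part of smooth muscle in the Col12a1 values was not tested.

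Col14a1, a FACIT of skin, tendon and lung mesenchyme, stood at 9.85, 9.80 and 9.89 on the control arrays and 9.71, 9.66 and 9.74 on the mutant arrays. The groups were close but did not overlap, with a difference of -0.14 ± 0.06 (adjusted p = 0.209). Col16a1 was at 0.00 ± 0.08, and Col22a1, a collagen of muscle-tendon junctions, at -0.08 ± 0.08. Col19a1 and Col20a1 were at -0.08 and -0.13 and their groups overlapped too.

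The 4 transmembrane collagens had no call, with 2 on each side of 0 and a median of -0.14. Col23a1 stood at 8.58, 8.61 and 8.61 on the control arrays and 8.72, 8.55 and 8.83 on the mutant arrays (0.10 ± 0.08, adjusted p = 0.543). Col13a1, found at cell-matrix contacts and the neuromuscular junction, stood at 8.03, 8.02 and 8.09 on the control arrays and 7.92, 7.59 and 7.73 on the mutant arrays (-0.30 ± 0.09, adjusted p = 0.0848). Col25a1, a collagen needed by motor axons to enter muscle, stood at 7.75, 7.79 and 7.91 on the control arrays and 7.51, 7.18 and 7.61 on the mutant arrays (-0.38 ± 0.11, adjusted p = 0.0839). Both lay below the controls on every mutant array, whereas Col23a1 overlapped. Without mutant 1, its highest mutant, Col13a1 passed (adjusted p = 0.018), and it did so with array weights (adjusted p = 0.0422). Col17a1, the hemidesmosome collagen of basal epithelium, was at 0.01 ± 0.09.

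The beaded-filament and short-chain collagens had no call in 8 genes, 7 of them with negative differences, and a median of -0.14. Type VI collagen forms beaded microfibrils around cells of connective tissue and muscle. Col6a1 stood at 10.30, 10.28 and 10.31 on the control arrays and 9.91, 9.72 and 10.26 on the mutant arrays (-0.33 ± 0.12, adjusted p = 0.168). Col6a2 stood at 10.27, 10.32 and 10.37 on the control arrays and 9.91, 9.68 and 10.24 on the mutant arrays (-0.38 ± 0.13, adjusted p = 0.137). The 2 chains had the same order of mutants, mutant 3 just below the controls and mutant 2 lowest, and their deviations differed by less than 0.1 on each array. Without mutant 3, the highest mutant of both, Col6a1 and Col6a2 passed (adjusted p = 0.0143 and 0.016), an omission that favours a fall. Col6a3, the third chain of the trimer, stood at 9.37, 9.59 and 9.60 on the control arrays and 9.55, 8.98 and 9.47 on the mutant arrays (-0.19 ± 0.15, adjusted p = 0.574), so that mutant 1 lay within the control range for Col6a3 and below it for Col6a1 and Col6a2.

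The Col6a1 window (chr10:76725995-76726294, minus strand) was the only 1 of the 38 windows, from 35 collagen genes, with the forkhead letters. This share of 2.63% was not above that of all windows (3.65%), and binding was not tested. The letters stand in capitals on the reverse strand 211 bases before the start.
Col6a1: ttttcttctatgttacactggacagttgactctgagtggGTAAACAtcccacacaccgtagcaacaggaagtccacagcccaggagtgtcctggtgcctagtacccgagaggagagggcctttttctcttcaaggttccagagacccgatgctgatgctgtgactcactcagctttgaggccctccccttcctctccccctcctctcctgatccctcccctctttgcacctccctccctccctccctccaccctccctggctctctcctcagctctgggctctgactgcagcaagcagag
Col6a4, Col6a5 and Col6a6, the later-found type VI chains, were at -0.16, -0.09 and 0.03, and the features of Col6a5 that were measured differed in sign (-0.09 and 0.13) without either passing. Col8a1 and Col8a2, the hexagonal-network chains of vessel walls and cornea, were at -0.13 and -0.08. Of the remaining genes Col26a1, an atypical collagen, was at 0.09 ± 0.14 (9.34, 9.19 and 9.20 in controls and 9.65, 9.04 and 9.32 in mutants), and Col28a1 at -0.03 ± 0.09 (6.12, 5.93 and 6.26 in controls and 6.13, 6.00 and 6.10 in mutants).

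Among genes that make, cut, bind and degrade collagen, 10 passed the test. Of 71 measured genes in 5 lists, 8 fell and 2 rose (14.1%, beside 7.66% of all genes), and 61 did not pass. The median difference was -0.01, as over all genes. The count fell to 5 of 71 without control 1 (7.04%, beside 4.39% of all genes), 3 without control 2 (4.23%, beside 3.98%) and 3 without control 3 (4.23%, beside 3.9%), so that without control 2 or control 3 the share was near the background.

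Among 20 genes of chain assembly and modification 1 fell (5%, beside 3.83% of all genes) and 0 rose (beside 3.84%). Plod2, the lysyl hydroxylase of the telopeptides, was at -0.31 ± 0.06 (adjusted p = 0.0182), and the call ended without control 2, control 3 or mutant 3 (adjusted p up to 0.0939) and with the replicate number as a block (adjusted p = 0.0643). Of 12 genes of propeptide cleavage and cross-linking 3 fell (25%, beside 3.83% of all genes) and 0 rose (beside 3.84%). Lox, the lysyl oxidase that starts the cross-links of collagen and elastin, stood at 11.31, 11.21 and 11.26 on the control arrays and 10.61, 10.66 and 10.90 on the mutant arrays. All mutants lay below all controls (-0.54 ± 0.08, adjusted p = 0.00696), and the call held without any 1 array. Pcolce, the enhancer of procollagen cleavage, was at -0.43 ± 0.09 and Bmp1, the C-proteinase itself, at -0.35 ± 0.06, both past the threshold. The Pcolce call ended without control 1, control 3, mutant 1 or mutant 3 (adjusted p up to 0.0798) and with the block (0.0563), and the Bmp1 call without control 2 or control 3 (up to 0.0814).

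**Figure D5:**
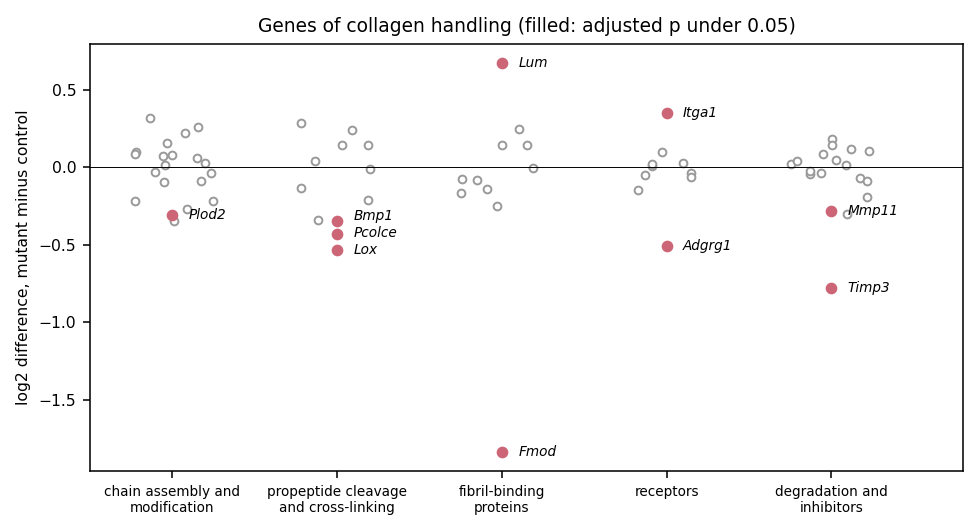
Log2 difference (mutant minus control, y axis) of 71 genes of collagen handling in 5 lists, each point 1 gene. Filled, named points are the 10 genes past the adjusted threshold, with Fmod at -1.84 the lowest and Lum at 0.67 the highest.

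Of 11 genes of fibril-binding proteins 1 fell, 1 rose (9.09% each, beside 3.83% and 3.84% of all genes) and 9 did not pass. Fmod, fibromodulin, which binds type I and II fibrils and limits their growth, stood at 11.14, 11.12 and 11.03 on the control arrays and 9.18, 9.12 and 9.49 on the mutant arrays. It was 3.57-fold lower (-1.84 ± 0.10, adjusted p = 4.75e-05), more than any collagen. Lum, lumican, a relative that binds the same fibrils, stood at 8.41, 8.17 and 8.60 on the control arrays and 9.01, 9.37 and 8.81 on the mutant arrays (0.67 ± 0.15, adjusted p = 0.0377). Mutant 2, the low array of the collagens, was the highest for Lum, and without any single array but mutant 3 the call of Lum ended (adjusted p up to 0.133), as it did with the block (0.0836).

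Of 10 collagen receptors 1 rose and 1 fell (10% each, beside 3.84% and 3.83% of all genes). Itga1, the α1 integrin chain that binds type IV and type I collagen, rose (0.35 ± 0.08, adjusted p = 0.0382). Adgrg1, an adhesion G protein-coupled receptor for type III collagen, fell (-0.51 ± 0.09, adjusted p = 0.0137). The Itga1 call ended when any array except mutant 2 was omitted (adjusted p up to 0.144) and with the block (0.0731), and the Adgrg1 call without control 1 or control 2 (up to 0.067). Of 18 genes of degradation, 2 fell (11.1%, beside 3.83% of all genes) and 0 rose (beside 3.84%). Control means in this list ran from 4.37 for Mmp1b to 11.78 for Mmp2. Mmp1a, Mmp1b, Mmp3, Mmp8 and Mmp13 lay at 4.85 or less, below the array medians of 6.70 to 6.79, where a fall could hardly show. Timp3, the matrix-bound inhibitor of metalloproteinases, stood at 10.01, 10.25 and 10.05 on the control arrays and 9.50, 8.99 and 9.50 on the mutant arrays (-0.78 ± 0.14, adjusted p = 0.0136), and the call ended without control 2 or control 3 (adjusted p = 0.0624 and 0.0537). Mmp11, the metalloproteinase stromelysin-3, was at -0.28 ± 0.06 (adjusted p = 0.0301), and its call ended with 5 of the 6 arrays left out in turn (adjusted p up to 0.118) and with the block (0.0893).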

How the data were processed

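The authors deposited log2 values, 1 column per array. The submitters' processing notes list the tools oligo, RMA and limma, with no version. RMA corrects background, normalizes between arrays and summarises probes. Its settings and a genome build are not given in the sources read. Of 35556 features, 21789 carry a single gene symbol in the platform annotation and entered here, 1621 carry several and 12146 none. One feature per gene (highest mean) left 19938 genes. They were compared with limma 3.58.1 in R 4.3.3 (lmFit, eBayes, two-sided, a single genotype term), adjusted by Benjamini-Hochberg over all genes, threshold 0.05, with 7.96 moderated degrees of freedom. Differences are log2, mutant minus control, with the moderated standard error (SE). RMA compresses differences of dim genes. The 3 arrays per group set the precision. The test was checked on simulated data for the 19938 genes and found 56 genes among 67 with a simulated 1.5-fold difference, 65 among 67 at 2-fold and 66 among 67 at 4-fold, with 7 false calls among the genes simulated without a change. The simulation drew each gene on each array independently, without the shift that the collagens share on mutant 2. Recovery was not measured for the collagens, whose median SD in mutants was 0.16 against 0.10 over all genes.

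The members, gene classes and lists were chosen with earlier results of these data known. Col2a1, Col11a1, Col11a2, the type IX chains and Col10a1 were counted as cartilage collagens. All collagens are reported, with values on each array for those past the threshold and the 2 with the highest mean in each class, and up to 4 genes past the threshold per list of collagen-handling genes. Other genes given array by array were chosen after their values were seen. Of 76 listed genes of collagen handling 71 were measured. Alternatives were a repeated quantile normalization, median centring, a filter on the lowest 1 of 3 parts of genes by mean, all features, averaged features, trend with robust moderation, array weights, a replicate block, each array left out and other thresholds.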

Additional observations from a re-analysis of the deposited data

How the results depend on the processing

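Col18a1, Col27a1 and Col4a4 stayed called under quantile normalization, median centring, the filter on dim genes, all or averaged features, trend moderation and array weights. Array weights gave 7 collagen calls (6 lower, 1 higher), and a threshold of 0.1 gave 7, all lower. A fold of at least 1.5 left 1 collagen, Col18a1, and 3 collagen-handling genes, and 549 of all genes. With single arrays left out, collagen calls ran from 1 (without control 3) to 7 (without mutant 1), those lower from 1 to 7, those higher from 0 to 1, collagen-handling genes from 3 to 11, and all genes from 778 to 1745. No reported collagen call changed sign. Structural classes in place of tissue-based ones moved no class's number of calls. Without mutant 1, called collagens were 15.9% beside 7.44% of all genes.

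With the replicate number as a block 3 of the 44 collagens were called, the same genes. So were 5 of 71 collagen-handling genes (7.04%, against 14.1% without the block) and 1137 of all 19938 genes. The numbers are not shown to pair the embryos: deviations of same-numbered arrays correlated at -0.07, 0.05 and 0.15. Of the 44 collagens, 26 had a control mean above the median of all genes. Differences of the dimmer ones may be low estimates, which was not measured here.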
